A study of Homo sapiens with 24 samples.

Results

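Replication-dependent histone genes encode the linker histone H1 and the core histones H2A, H2B, H3 and H4, from which a dividing cell builds the chromatin of its new DNA. The 75 genes described here are the entries of the deposited tables whose symbols begin with HIST1H, HIST2H, HIST3H or HIST4H and do not contain PS, out of 35587 gene symbols. Another 14 symbols with PS, which mark pseudogenes, were left out by that rule. The members are 6 H1 genes, 17 H2A genes, 22 H2B genes, 15 H3 genes and 15 H4 genes. In GENCODE release 29, 55 lie on chromosome 6, 19 on chromosome 1 and 1 on chromosome 12, and 5 of the 75 are annotated as pseudogenes although their symbols lack PS (HIST2H2BA, HIST2H2BB, HIST2H2BD, HIST2H3DP1 and HIST3H2BA).

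RNA was sequenced from MOLM14 and OCI-AML2, which are established human acute myeloid leukaemia (AML) cell lines. Each line was kept for 24 h with ARM165, with AZ2 or with DMSO, the solvent control, which made 6 groups of 4 libraries. The study is about a PI3K gamma and AKT module of AML and, by its title, a heterobifunctional degrader, a molecule that joins a target protein to the cell's degradation machinery. Which of ARM165 and AZ2 is that degrader is not stated in the labels. Doses are not stated either, so whether those of ARM165 and AZ2 were matched is unknown. The origin of the 4 libraries of a group is likewise not stated, and if they were not separate cultures, the p-values below may reflect technical spread alone.

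Most replication-dependent histone mRNAs differ from all other mRNAs of animal cells in that they end in a short stem-loop and not in a poly(A) tail. The stem-loop binding protein SLBP and the U7 small nuclear ribonucleoprotein direct the cut just behind it, the mRNAs accumulate in S phase, and they are degraded quickly when DNA synthesis stops. Some of the genes can also be read through to a poly(A) signal further downstream, and such polyadenylated histone mRNAs are known from cells that have left the cycle. The libraries here were made from poly(A) RNA. The values therefore describe histone transcripts that were caught by poly(A) selection, and they say nothing of the total amount of histone mRNA.

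A 16-base match to a stem-loop pattern, which allows more than 1 base at some positions, was found in a GENCODE 29 transcript of 34 of the 75 genes. It is shown for members that the results turn on because its sequence differs between histone types and because the transcript end relative to it is used below. Capitals mark the 16 bases of the stem-loop and the small letters are the 5 bases on each side.
HIST1H2AC: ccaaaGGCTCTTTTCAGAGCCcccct
HIST2H2BE: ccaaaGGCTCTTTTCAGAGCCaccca
HIST1H2BD: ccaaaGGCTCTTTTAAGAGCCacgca
HIST1H2AG: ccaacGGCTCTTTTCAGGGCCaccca
HIST1H4H: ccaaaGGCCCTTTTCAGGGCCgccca
HIST2H4A: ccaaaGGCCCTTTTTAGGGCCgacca
The form in HIST1H2AC and HIST2H2BE was the most common, with 18 H2A, H2B and H3 genes. All 8 H4 genes with a stem-loop carried 1 of the last 2 forms, 5 genes the one in HIST1H4H and 3 the one in HIST2H4A.

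Promoters of the genes carry short motifs that are known for their histone type, namely the octamer ATTTGCAT, bound by POU2F1, in H2B genes and the AAACACA box in H1 genes. The 250 bases before the RefSeq start (build GRCh38.p14) are shown for the 4 genes of different types that are described most fully, with the TATAAA box, the CCAAT box, the octamer and the AAACACA box in capitals on either strand. In GENCODE 29 (GRCh38) the gene spans are chr6:26055787-26056428 for HIST1H1C, chr6:26124145-26139116 for HIST1H2AC, chr1:149884459-149886652 for HIST2H2BE and chr6:26277609-26285638 for HIST1H4H, all protein-coding. The windows are chr6:26056471-26056720 (- strand) for HIST1H1C, chr6:26123922-26124171 (+ strand) for HIST1H2AC, chr1:149886683-149886932 (- strand) for HIST2H2BE and chr6:26285535-26285784 (- strand) for HIST1H4H.
HIST1H1C: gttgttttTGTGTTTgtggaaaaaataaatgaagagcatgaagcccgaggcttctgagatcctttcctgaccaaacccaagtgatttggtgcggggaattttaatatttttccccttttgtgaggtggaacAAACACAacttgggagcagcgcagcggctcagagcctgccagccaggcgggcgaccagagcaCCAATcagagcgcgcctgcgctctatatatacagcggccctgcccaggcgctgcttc
HIST1H2AC: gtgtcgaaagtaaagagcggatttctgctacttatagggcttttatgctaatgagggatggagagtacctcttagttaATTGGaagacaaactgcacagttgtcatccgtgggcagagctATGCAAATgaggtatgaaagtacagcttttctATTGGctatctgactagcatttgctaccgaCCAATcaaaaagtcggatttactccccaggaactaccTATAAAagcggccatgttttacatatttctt
HIST2H2BE: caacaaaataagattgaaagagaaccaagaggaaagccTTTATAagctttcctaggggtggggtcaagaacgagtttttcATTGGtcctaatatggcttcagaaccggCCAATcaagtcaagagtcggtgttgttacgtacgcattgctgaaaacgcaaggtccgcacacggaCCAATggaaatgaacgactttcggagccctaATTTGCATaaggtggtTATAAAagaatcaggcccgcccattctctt
HIST1H4H: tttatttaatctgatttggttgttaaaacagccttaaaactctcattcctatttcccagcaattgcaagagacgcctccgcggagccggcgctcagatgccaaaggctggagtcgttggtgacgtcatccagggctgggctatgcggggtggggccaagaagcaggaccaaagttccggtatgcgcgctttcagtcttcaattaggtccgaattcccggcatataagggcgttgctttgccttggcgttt
Of the 75 members, 69 matched a RefSeq symbol and 60 had a single entry in the RefSeq table of promoter windows, which run from 250 bases before to 50 after the start. AAACACA was present in 6 of 6 H1 windows, 1 of 16 H2A windows, 2 of 12 H3 windows and in none of the 13 H2B or 13 H4 windows, against 5.76% of all 27305 windows. ATTTGCAT was in 11 of 16 H2A and 9 of 13 H2B windows and in none of the H1 or H4 windows, against 1.80% of all windows. Windows of H2A and H2B genes that lie head to head overlap, so the same motif can count for both types. The H2A and H2B counts are therefore not independent. CCAAT was in all 47 windows of H1, H2A, H2B and H3 genes but in only 3 of 13 H4 windows, and TATAAA was in 40 of 60 windows, against 35.7% and 12.0% of all windows. The window of HIST1H4H held none of the 4 motifs, which says only that these letters are not in it.

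Reads per library were inferred at 35.4 M to 59.0 M by taking the most common small value of each library as a single read. They are not measured read counts. Between 18889 and 19699 symbols had a value above 0. The deposited values are estimated reads per gene scaled between the libraries of a line, called normalized reads here. Each line has its own scaling, and levels are therefore compared only within a line. Both lines had the myeloid genes SPI1, CEBPA and CD33 at 1931 normalized reads or more in every library, while the 12 listed marker genes of lymphoid, erythroid, epithelial and stromal cells stayed at 115 or less. Of the other myeloid markers, MPO stayed at 148 normalized reads or less and ITGAM at 191 or less in every library of MOLM14, and both were at 30.5 or less in every library of OCI-AML2. LYZ averaged 2677 normalized reads in ARM165 libraries, 19254 in AZ2 libraries and 20319 in DMSO libraries of MOLM14, and 19744, 45416 and 47537 in those of OCI-AML2. In MOLM14, PTPRC averaged 6229 with ARM165 and 2392 with DMSO, FLT3 10668 and 24075, and MPO 27.8 and 124. In OCI-AML2, PTPRC averaged 2862 with ARM165 and 1782 with DMSO, FLT3 1979 and 6164, and MPO 6.79 and 20.4. The mitochondrially encoded share was 5.02 to 5.91% in ARM165 libraries of OCI-AML2, against 7.75 to 8.63% with AZ2 and 7.20 to 8.11% with DMSO, and in MOLM14 it was 4.49 to 5.08%, against 5.39 to 6.32% and 5.07 to 5.45%. The part of these differences in the histone results was not tested.

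Summed over all 75 genes, histone reads made up 8.37 times as large a share of the library after ARM165 as after DMSO in MOLM14, and 7.06 times as large in OCI-AML2. In MOLM14 the share was 235 ± 9.67 RPM (reads per 1000000 normalized reads) with ARM165, 27.4 ± 2.66 with AZ2 and 28.1 ± 2.30 with DMSO (mean ± SD, n = 4 libraries, as throughout). In OCI-AML2 it was 482 ± 9.28 RPM with ARM165, 66.05 ± 2.45 with AZ2 and 68.3 ± 1.81 with DMSO. The ARM165 libraries lay above all others of their line in each of the 5 histone types, while AZ2 and DMSO libraries overlapped in every type. These are bulk samples, in which a change in the number of cells that express a gene and a change in its RNA per cell cannot be told apart. This sum needs no filter on low values and no model, and no test was applied to it.

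By type, the H1 genes had the largest ratio of ARM165 to DMSO means in both lines, 22.6 in MOLM14 and 14.2 in OCI-AML2. They summed to 41.7 ± 0.915 RPM with ARM165 and 1.84 ± 0.497 with DMSO in MOLM14, and to 89.2 ± 5.67 with ARM165 and 6.27 ± 0.535 with DMSO in OCI-AML2. Most of the H1 sum with ARM165 came from HIST1H1C alone, so the ratio does not describe the H1 genes in general. The median log2 change of the tested H1 genes was 1.82 in MOLM14 and 2.86 in OCI-AML2, against 1.94 and 1.90 for all tested members. The 4 genes behind the 2.86 include HIST1H1T, which entered the test through ARM165 libraries alone. That median therefore does not show a larger rise of H1 genes in OCI-AML2. HIST1H2AC was likewise the largest part of the H2A sum. The H2A genes summed to 96.7 ± 8.98 RPM in MOLM14 and 154 ± 4.38 in OCI-AML2 with ARM165, against 9.45 ± 1.24 and 13.5 ± 0.768 with DMSO. The ratio was smaller for H2B genes, at 4.33 and 4.86, with sums of 47.1 ± 1.57 and 135 ± 2.98 RPM with ARM165 and 10.9 ± 0.994 and 27.9 ± 1.62 with DMSO. H3 genes summed to 7.06 ± 0.615 RPM with ARM165 and 1.31 ± 0.0902 with DMSO in MOLM14, and to 10.6 ± 0.802 and 3.46 ± 0.761 in OCI-AML2. H4 genes reached 42.7 ± 1.91 and 93.2 ± 2.76 RPM with ARM165, against 4.60 ± 0.676 and 17.2 ± 2.66 with DMSO.

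**Figure D1:**
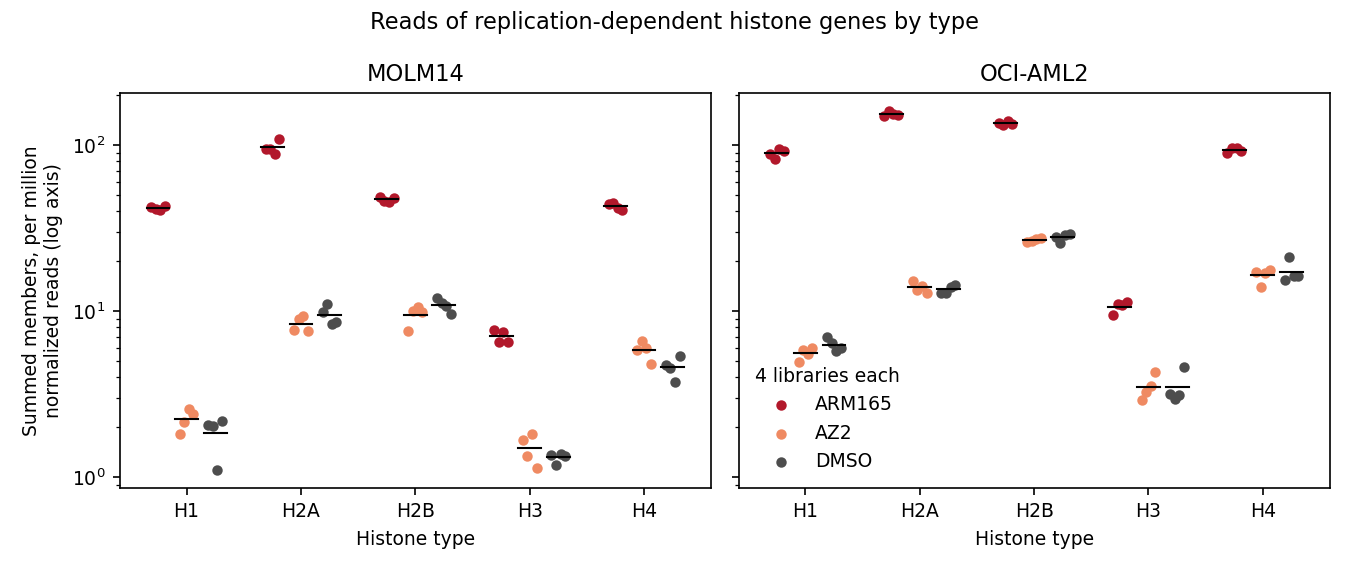
Reads of the 75 histone genes summed by type, in RPM (log axis), in each library of MOLM14 (left) and OCI-AML2 (right). Points are libraries, 4 per treatment, and lines are group means. ARM165 libraries are above AZ2 and DMSO libraries in all 5 types, from H3 genes in MOLM14 (6.53 to 7.73 with ARM165, 1.18 to 1.37 with DMSO) to H2A genes in OCI-AML2 (149 to 159 and 12.8 to 14.4).

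Gene by gene, 68 of the 75 members had a value above 0 in at least 1 library of MOLM14, and 68 in OCI-AML2. The test took members that reached 10 normalized reads in 4 or more of the 12 libraries, which left 40 members in MOLM14 and 45 in OCI-AML2, 37 of them in both. Changes are log2 fold changes ± SE of log2(value + 1), a scale on which changes of genes with few reads come out too small, and a gene was called at a limma p under 0.05 after Benjamini-Hochberg adjustment over all genes tested. After ARM165, 34 of the 40 members in MOLM14 were higher than with DMSO and 0 were lower, against 35.5% of all 15288 tested genes called higher and 34.0% called lower. In OCI-AML2, 28 of 45 were higher and 1 was lower, against 34.2% and 31.6% of 15377 tested genes. The median change was 1.94 in MOLM14 and 1.90 in OCI-AML2, where the median over all tested genes was 0.031 and 0.034.

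A member with few reads in DMSO libraries can pass the filter through the libraries in which it is high, so these counts include genes that had to differ. HIST1H4B and HIST1H4C in MOLM14 and HIST1H1T in OCI-AML2 passed through ARM165 libraries alone. HIST2H3A and HIST2H3C in MOLM14, which hold equal values, also needed the ARM165 libraries to pass. Their sum was 102 to 132 with ARM165, 11.9 to 13.8 with AZ2 and 6.75 to 21.7 with DMSO. In MOLM14, 22 of the 40 tested members had under 10 normalized reads in at least 1 DMSO library. Of the 18 with 10 or more in all 4 DMSO libraries, 17 were higher and 0 lower, where 36.1% of the 13314 genes of that kind were higher and 38.5% lower. In OCI-AML2 this held for 20 members, of which 17 were higher and 0 lower, where 36.5% of 13357 genes were higher and 35.9% lower. With no filter, 38 of 68 members were higher and 0 lower in MOLM14 (21.0% and 19.4% of 26271 genes), and 28 of 68 were higher and 3 lower in OCI-AML2 (19.9% and 17.8% of 26517 genes). The ARM165 and DMSO libraries did not overlap, with ARM165 higher, for 31 of the 40 members tested in MOLM14, against 33.1% of all tested genes, and for 27 of 45 in OCI-AML2, against 31.7%. They did not overlap, with ARM165 lower, for 0 members in MOLM14 (30.7% of all tested genes) and 1 in OCI-AML2 (28.8%).

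**Figure D2:**
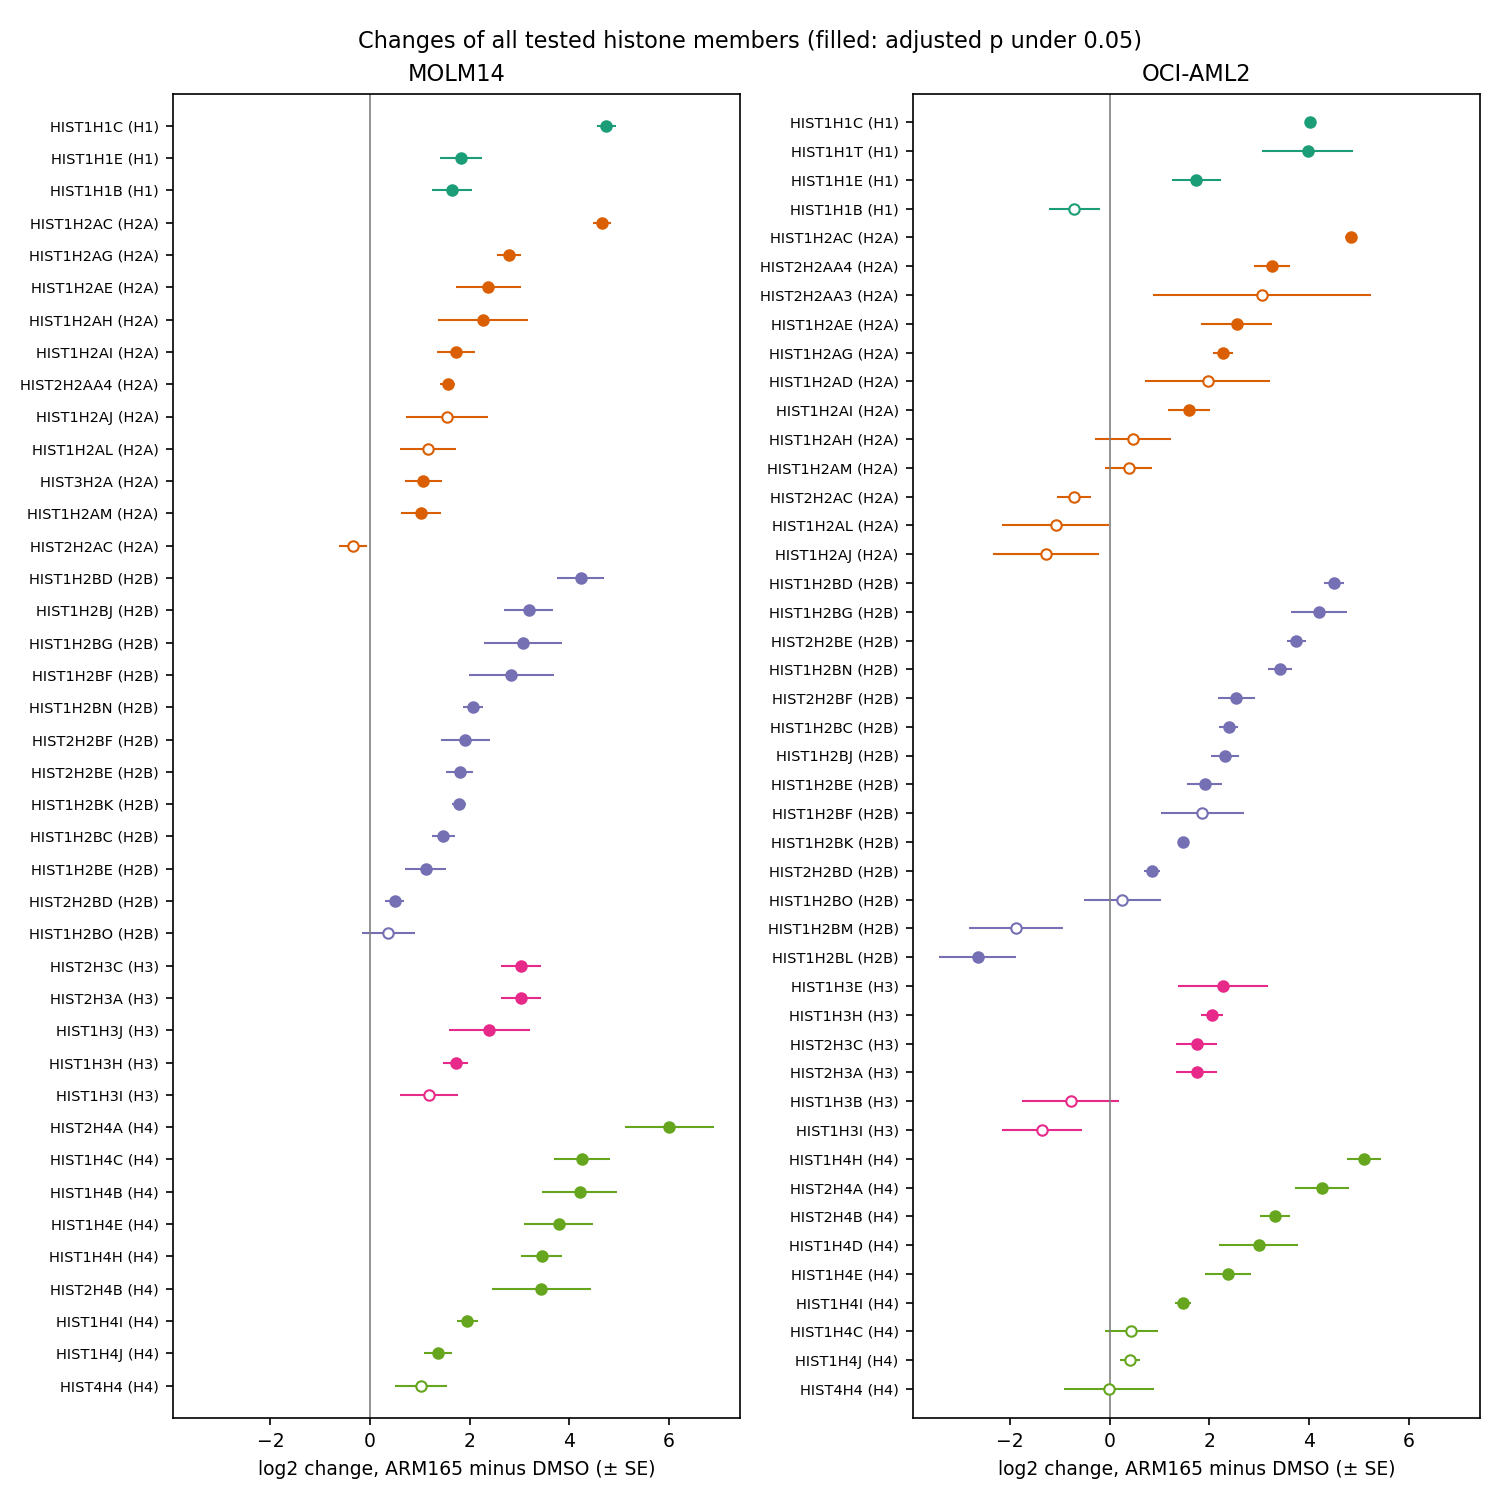
Log2 change with ARM165 minus DMSO (± SE) of each tested member in MOLM14 (left, 40 members) and OCI-AML2 (right, 45 members), ordered within the histone type given in brackets. Filled points have an adjusted p under 0.05. In MOLM14 only HIST2H2AC lies below 0, whereas 9 members do in OCI-AML2, of which HIST1H2BL was called.

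Among linker histones, HIST1H1C, which encodes H1.2, rose with ARM165 in both lines. In MOLM14 it had 1478, 1462, 1446 and 1676 normalized reads in the ARM165 libraries, 69.99, 70.5, 92.8 and 89.9 in AZ2 libraries and 60.1, 65.6, 34.3 and 68.98 in DMSO libraries. In OCI-AML2 the values were 3613, 3389, 4037 and 3870.4 with ARM165, 182, 197, 196 and 214 with AZ2 and 277, 253, 189 and 201 with DMSO. All ARM165 libraries stood far above the rest, and the group means were 26.5-fold and 16.2-fold higher with ARM165 than with DMSO. The log2 change was 4.75 ± 0.19 in MOLM14 (adjusted p = 7.46e-12) and 4.03 ± 0.12 in OCI-AML2 (adjusted p = 2.09e-13).

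HIST1H1E, which encodes H1.4, rose less. It had 65.98, 34.7, 72.4 and 46.6 normalized reads with ARM165 and 21.7, 12.5, 10.7 and 13.8 with DMSO in MOLM14, where the groups did not overlap. In OCI-AML2 it had 57.3, 88.2, 39.6 and 86.3 with ARM165 and 13.01, 19.1, 51.2 and 9.08 with DMSO, where 1 DMSO library reached into the ARM165 range. The log2 changes were 1.82 ± 0.43 and 1.74 ± 0.50 (adjusted p = 0.00137 and 0.00603). HIST1H1B, which encodes H1.5, was called higher in MOLM14 only, at 28.7 ± 6.89 normalized reads with ARM165 and 8.76 ± 3.49 with DMSO (log2 change 1.65 ± 0.41, adjusted p = 0.00197). In OCI-AML2 it had 8.99, 14.7, 3.96 and 12.2 with ARM165 and 13.01, 11.9, 10.2 and 35.2 with DMSO, which overlapped (log2 change -0.71 ± 0.51, adjusted p = 0.236). HIST1H1T, the testis H1 gene, named here after its values were seen, was the other H1 gene tested in OCI-AML2, at 20.2, 26.3, 28.7 and 34.5 with ARM165 and listed at 0 in 3 of the 4 DMSO libraries.

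Of the H2A genes, 8 of 11 tested were higher in MOLM14 and 5 of 12 in OCI-AML2. The share in OCI-AML2 is close to the 34.2% of all tested genes called higher there, against 35.5% in MOLM14. HIST1H2AC had the largest rise of the type in each line. It had 2487, 2474, 2441 and 3322 normalized reads with ARM165 and 107, 148, 82.4 and 91.2 with DMSO in MOLM14. In OCI-AML2 it had 3461, 3700.2, 3397 and 3789.7 with ARM165 and 128, 129, 127 and 113 with DMSO. AZ2 libraries, at 91.6 ± 15.8 in MOLM14 and 127 ± 24.8 in OCI-AML2, lay with the DMSO libraries. The log2 changes with ARM165 were 4.66 ± 0.18 and 4.84 ± 0.12 (adjusted p = 4.21e-12 and 3.68e-14), and the group means were 25.02-fold and 28.8-fold higher. HIST1H2AG rose by 2.79 ± 0.23 in MOLM14, to 499 ± 68.8 normalized reads against 71.8 ± 15.6 with DMSO, and by 2.27 ± 0.21 in OCI-AML2, to 629.9 ± 71.3 against 135 ± 41.8 (adjusted p = 3.29e-08 and 9.07e-08).

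HIST2H2AA3 and HIST2H2AA4 are near-identical copies on chromosome 1, and the reads of the pair were divided between them unevenly from library to library. In the ARM165 libraries of OCI-AML2, HIST2H2AA3 had 0.0506, 1686, 1204 and 443 normalized reads and HIST2H2AA4 had 2046, 674, 1149 and 1610.3. Their sum varied far less, at 2046, 2360.1, 2353 and 2053 with ARM165 and 225, 179, 205 and 188 with DMSO. Fitted as 1 gene, a step chosen after seeing the data, the pair rose by 3.46 ± 0.10 in OCI-AML2 and by 1.54 ± 0.15 in MOLM14 (adjusted p = 2.08e-13 and 1.59e-07). Alone, HIST2H2AA4 rose by 1.56 ± 0.15 in MOLM14 and 3.26 ± 0.36 in OCI-AML2, whereas HIST2H2AA3 was not called in OCI-AML2 (log2 change 3.05 ± 2.19, adjusted p = 0.237) and too low to test in MOLM14. Without ARM165 replicate 1 its change in OCI-AML2 was 5.52 (adjusted p = 0.0108). HIST2H2AC, singled out after its values were seen, was not called in either line. It had 33.1, 54.7, 43.9 and 45.8 with ARM165 and 65.04, 76.2, 32.03 and 59.1 with DMSO in MOLM14, and 33.04, 28.7, 22.7 and 49.3 with ARM165 and 61.1, 33.4, 72.8 and 55.6 with DMSO in OCI-AML2. These groups overlapped (log2 change -0.34 ± 0.28 and -0.72 ± 0.34, adjusted p = 0.309 and 0.0749), but after quantile normalization it was called lower in both lines (-0.70 and -0.81, adjusted p = 0.0359 and 0.0482). In OCI-AML2 it was also called lower without ARM165 replicate 4 or DMSO replicate 2 (-0.92 and -0.94, adjusted p = 0.0340 and 0.0256).

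H2B genes were called higher in 11 of 12 tested in MOLM14 and in 10 of 14 in OCI-AML2 (35.5% and 34.2% of all tested genes). HIST1H2BD had 519.7, 449.7, 426 and 575 normalized reads with ARM165 and 22.6, 12.9, 62.5 and 21.4 with DMSO in MOLM14. The values in OCI-AML2 were 1424, 1371, 1440.2 and 1456 with ARM165 and 59.4, 53.5, 84.7 and 53.2 with DMSO. The groups were far apart in both lines, with log2 changes of 4.23 ± 0.48 and 4.51 ± 0.20 (adjusted p = 1.09e-06 and 2.88e-11). HIST1H2BK rose by a smaller factor. It averaged 396 ± 16.1 with ARM165 and 115 ± 12.4 with DMSO in MOLM14, and 1859 ± 107 and 672 ± 37.7 in OCI-AML2, which is 3.45-fold and 2.77-fold (adjusted p = 2.11e-08 and 3.14e-10).

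HIST2H2BE had 152, 147, 156 and 118 normalized reads with ARM165 and 51.04, 31.9, 26.7 and 59.5 with DMSO in MOLM14. The OCI-AML2 libraries had 587, 647, 730.0 and 696 with ARM165 and 55.6, 54.8, 45.7 and 39.7 with DMSO. It rose in both lines, by 1.80 ± 0.28 and 3.75 ± 0.19 (adjusted p = 2.86e-05 and 8.31e-11), with no overlap between the groups. HIST1H2BG, HIST1H2BJ and HIST1H2BN also rose in both lines, by 3.07 ± 0.79, 3.19 ± 0.49 and 2.07 ± 0.20 in MOLM14 and by 4.20 ± 0.56, 2.32 ± 0.28 and 3.42 ± 0.24 in OCI-AML2. The annotated span of HIST1H2BN overlaps HIST1H2AL and HIST1H2AK, 2 of the 5 overlaps between members, and how the authors divided shared reads was not given in the sources used here.

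The annotated pseudogene HIST2H2BD changed least among the H2B members called in each line. In MOLM14 it had 204, 153, 198 and 164 normalized reads with ARM165, 71.3, 94.3, 67.4 and 94.9 with AZ2 and 107, 170.2, 134 and 104 with DMSO. ARM165 and DMSO libraries overlapped there, and the change of 0.50 ± 0.19 (adjusted p = 0.0303) was lost when ARM165 replicate 1 or 3 or DMSO replicate 1 or 4 was left out (adjusted p = 0.0822, 0.0758, 0.0876 and 0.0933). It was also lost after quantile normalization (0.25, adjusted p = 0.243) and with no filter (adjusted p = 0.0547). In OCI-AML2 its rise was 0.85 ± 0.16 (adjusted p = 0.000211), with no overlap.

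HIST1H2BL, named here because it was the 1 member called lower, had 2.25, 0, 1.98 and 2.03 normalized reads with ARM165 in OCI-AML2, 9.12, 0.747, 15.97 and 6.77 with AZ2 and 9.46, 16.7, 14.9 and 14.8 with DMSO. All 4 ARM165 libraries lay below all DMSO libraries, at levels of a few reads (log2 change -2.66 ± 0.78, adjusted p = 0.00687). In MOLM14 it averaged 4.71 ± 4.04 with ARM165 and 6.51 ± 3.67 with DMSO, too low to test.

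Few H3 genes could be tested, 5 in MOLM14 and 6 in OCI-AML2, and 4 were higher in each line (35.5% and 34.2% of all tested genes). HIST1H3H, which encodes H3.1, had 93.3, 71.6, 60.1 and 102 normalized reads with ARM165 and 21.7, 23.2, 23.6 and 25.9 with DMSO in MOLM14, and 240.5, 322, 294 and 335 with ARM165 and 85.2, 78.6, 44.7 and 83.97 with DMSO in OCI-AML2. The groups did not overlap, and the rises were 1.72 ± 0.25 and 2.05 ± 0.22 (adjusted p = 1.35e-05 and 6.36e-07). HIST2H3A and HIST2H3C, which encode H3.2, share an identical transcript in GENCODE 29 and have the same value in every library, so they are 1 measurement. Both are nevertheless counted among the tested and called members here and in the other main counts. In MOLM14 both needed the ARM165 libraries to pass the filter. Each was listed at 50.8, 55.7, 65.9 and 52.96 with ARM165 and 10.8, 3.38, 7.63 and 4.31 with DMSO in MOLM14, and at 51.7, 53.2, 53.5 and 51.4 and 7.69, 11.3, 18.6 and 30.1 in OCI-AML2. The summed pair rose by 3.13 ± 0.34 in MOLM14 and 1.78 ± 0.37 in OCI-AML2 (adjusted p = 6.02e-07 and 0.000497).

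Of 9 H4 genes tested in each line, 8 were higher in MOLM14 and 6 in OCI-AML2 (35.5% and 34.2% of all tested genes). HIST1H4H had 294, 269, 352 and 237 normalized reads with ARM165, 43.2, 48.3, 18.8 and 23.2 with AZ2 and 39.4, 51.02, 15.3 and 12.7 with DMSO in MOLM14. The OCI-AML2 libraries had 1241, 1361, 1482 and 1467 with ARM165, 51.3, 48.02, 135 and 83.8 with AZ2 and 29.6, 82.6, 26.1 and 36.3 with DMSO. With ARM165 every library was above every DMSO library, and the rise of 5.11 ± 0.34 in OCI-AML2 was the largest there; in MOLM14 it was 3.45 ± 0.41 (adjusted p = 2.49e-09 and 1.85e-06). HIST1H4I rose less, to 219.7 ± 26.2 with ARM165 against 57.5 ± 17.3 with DMSO in MOLM14, and to 1416 ± 135 against 521 ± 140.0 in OCI-AML2 (log2 change 1.96 ± 0.21 and 1.47 ± 0.16, adjusted p = 4.43e-07 and 9.15e-07).

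HIST2H4A and HIST2H4B also share an identical transcript, and each overlaps an H3 gene on the opposite strand. HIST2H4A had the largest fitted rise in MOLM14, 6.01 ± 0.90, with 706, 399, 646 and 475 normalized reads with ARM165 and 7.39, 31.1, 0 and 17.6 with DMSO, 1 of which is listed at 0. Summed, the pair had 804, 806, 709.8 and 869 with ARM165 and 64.02, 31.1, 41.02 and 46.96 with DMSO in MOLM14. The summed rise was 4.14 ± 0.25 there and 3.79 ± 0.25 in OCI-AML2 (adjusted p = 6.48e-10 and 2.39e-09). HIST1H4C had 51.8, 86.3, 36.2 and 48.7 with ARM165 and 1.97, 0, 3.05 and 4.31 with DMSO in MOLM14, without overlap. Since it passed the filter there through ARM165 libraries alone, its change of 4.26 ± 0.56 is given as a description; with no filter the adjusted p was 2.17e-05. In OCI-AML2 it had 8.99, 18.6, 33.7 and 24.4 with ARM165 and 9.46, 22.6, 7.45 and 23.8 with DMSO, which overlapped (log2 change 0.43 ± 0.54, adjusted p = 0.501).

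**Figure D3:**
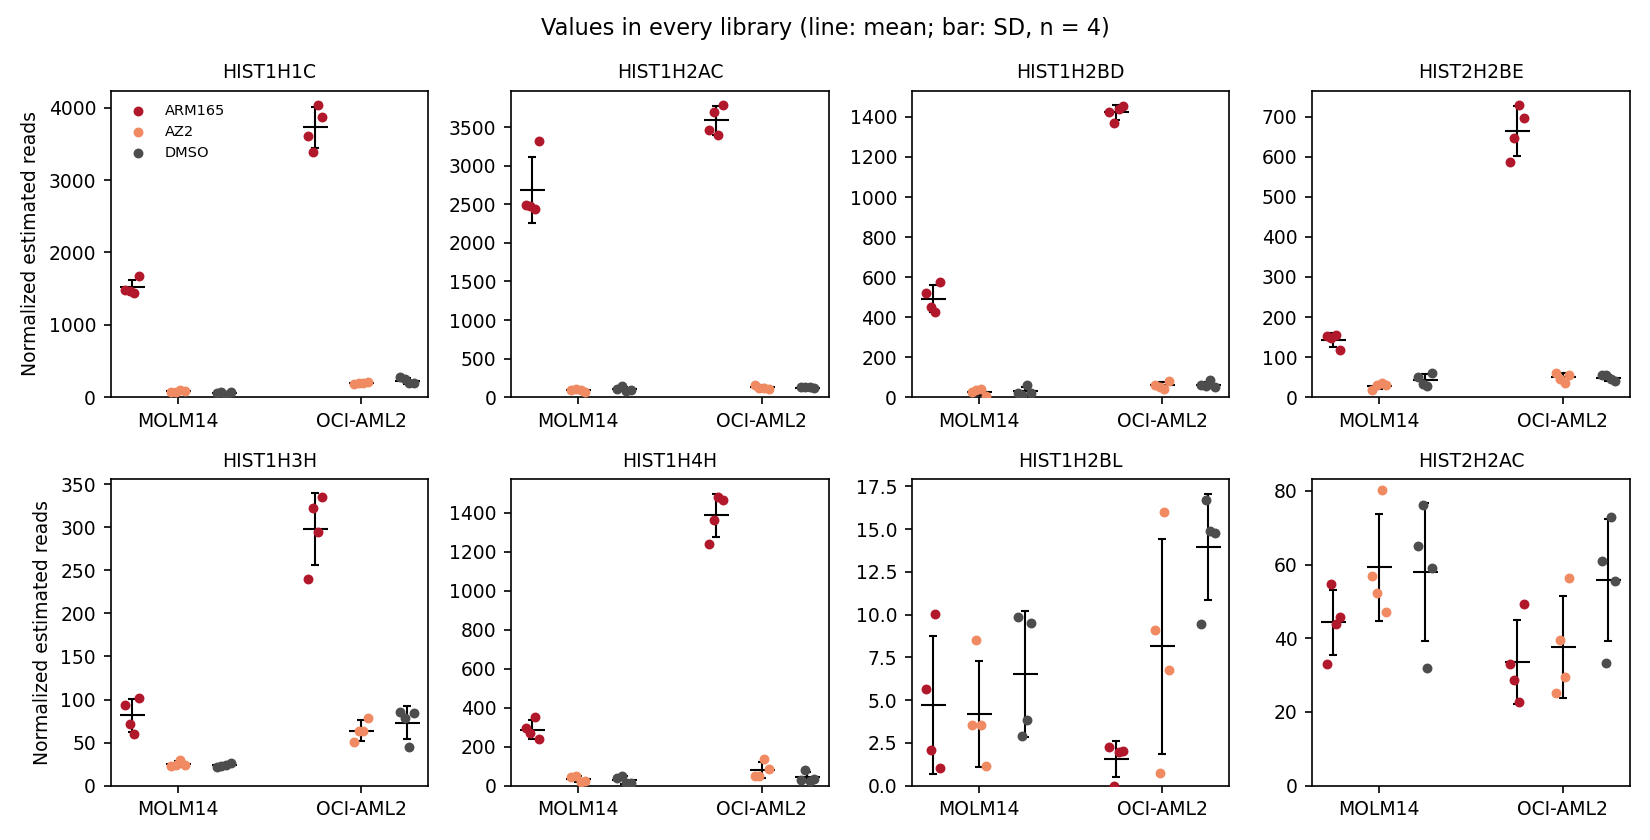
Normalized reads of 8 members in every library, by line and treatment, with the mean (line) and SD (bar, n = 4). For 6 of them, such as HIST2H2BE in OCI-AML2 (665 ± 61.9 with ARM165, 48.9 ± 7.63 with DMSO), the ARM165 points stand alone, whereas those of HIST2H2AC and of HIST1H2BL in MOLM14 overlap the DMSO points. The lines were scaled separately and are not to be compared in level.

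With AZ2 in place of ARM165, 0 of the 40 members tested in MOLM14 and 0 of the 45 in OCI-AML2 were called by limma, with 3 in each line at an unadjusted p under 0.05. At that unadjusted limma p, 320 of all 15288 genes were higher and 579 lower in MOLM14. In OCI-AML2, 335 of 15377 were higher and 398 lower. AZ2 called 0% of all genes higher and 0% lower in MOLM14, and 0.00650% and 0.104% in OCI-AML2. The median change of the members was 0.096 in MOLM14 and 0.0061 in OCI-AML2. Their 95% intervals lay within a log2 change of 1 either way for 14 of 40 and 16 of 45 members, while the intervals of the others reach beyond that and still hold larger changes. Among members with 10 or more reads in all DMSO libraries this held for 12 of 18 and 16 of 20.

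The smallest p for AZ2 in MOLM14 belonged to HIST2H2BD, at 82.0007 ± 14.6 normalized reads with AZ2 and 129 ± 30.7 with DMSO, a change of -0.63 ± 0.19 (interval -1.04 to -0.23, adjusted p = 0.651). In OCI-AML2 it belonged to HIST1H4H, at 79.6 ± 40.4 with AZ2 and 43.7 ± 26.3 with DMSO (0.88 ± 0.34, interval 0.15 to 1.61, adjusted p = 0.986). For HIST1H2AC and HIST1H1C, both far higher with ARM165, the AZ2 intervals were -0.58 to 0.17 (HIST1H2AC) and 0.12 to 0.94 (HIST1H1C) in MOLM14, and -0.25 to 0.26 and -0.45 to 0.046 in OCI-AML2.

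Set directly against each other, ARM165 gave higher values than AZ2 for 33 of 40 members in MOLM14, and 0 were lower, where 36.1% of all genes were higher and 34.0% lower. In OCI-AML2, 28 of 45 were higher and 2 lower with ARM165, where 34.5% and 31.4% of all genes were. HIST1H1C differed by 4.22 ± 0.19 in MOLM14 and 4.23 ± 0.12 in OCI-AML2 (adjusted p = 2.53e-11 and 1.24e-13), and HIST1H2AC by 4.86 ± 0.18 and 4.83 ± 0.12 (adjusted p = 2.66e-12 and 3.61e-14). The 2 lower members in OCI-AML2 were HIST1H1B (-1.30 ± 0.51, adjusted p = 0.0356) and HIST1H3I (-2.14 ± 0.81, adjusted p = 0.0298), and neither was called without ARM165 replicate 3, AZ2 replicate 2 or AZ2 replicate 4. HIST1H1B was also not called without ARM165 replicate 1 or with no filter, and HIST1H3I not without ARM165 replicate 2 or AZ2 replicate 3. HIST1H1B had 8.99, 14.7, 3.96 and 12.2 normalized reads with ARM165 and 19.4, 21.7, 18.4 and 40.6 with AZ2, of which the last stood apart.

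How far the 2 lines differed in their response was tested as the change in OCI-AML2 minus the change in MOLM14. Of the 37 members tested in both lines, 5 had a larger change in OCI-AML2 and 5 a smaller one, against 24.3% and 18.1% of all 14287 genes, so the members did not stand out from the background in this count. HIST2H2BE rose more in OCI-AML2, with a difference of 1.95 ± 0.33 (adjusted p = 4.51e-05), and so did HIST2H2AA4 (1.70 ± 0.42, adjusted p = 0.00215) and HIST1H4H (1.66 ± 0.58, adjusted p = 0.023). For the summed pair HIST2H2AA3 and HIST2H2AA4 the difference was 1.92 ± 0.17 (adjusted p = 3.14e-09). The call of HIST1H4H was lost without MOLM14 DMSO replicate 1 or 2 or OCI-AML2 DMSO replicate 3 (adjusted p = 0.0547, 0.0623 and 0.0524).

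In the other direction, HIST1H4C had the largest difference, -3.82 ± 0.77, a description for the reason given above (adjusted p with no filter = 0.000502), followed by HIST1H3I (-2.55 ± 0.99, adjusted p = 0.0415) and HIST1H1B (-2.36 ± 0.64, adjusted p = 0.00415). HIST1H3I, an H3.1 gene, had 18.9, 9.47, 13.9 and 18.01 normalized reads with ARM165 and 8.87, 6.75, 3.05 and 6.04 with DMSO in MOLM14, and 3.37, 0.773, 0 and 9.14 and 3.55, 4.77, 15.8 and 6.81 in OCI-AML2. Its change was not called in either line alone, and the call of the difference was lost in 15 of 30 alternatives (adjusted p up to 0.0985). For AZ2, 0 of the 37 members differed between lines by limma, with 4 at an unadjusted p under 0.05. Of all 14287 genes, 0% were called upward and 0.0280% downward, with 372 upward and 374 downward at that unadjusted p.

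The stem-loop shown above allows the members to be grouped by where their GENCODE 29 transcripts end, with a limit of 100 bases that was set after the data were seen. The longest transcript ran at least 100 bases past the stem-loop in 24 members, all transcripts with a stem-loop ended within 100 bases of it in 10, and no listed transcript held one in 41. Many of the 41 have a single model about as long as the coding sequence, which stops before a stem-loop could appear. For these the class reflects how far the annotation reaches and not a kind of gene. Among the 24 long ones, 15 (62.5%) had the poly(A) signal AATAAA in the last 40 bases of that transcript, against 34.4% of 83129 annotated protein-coding transcripts. These sets are unlike, since each member gave 1 transcript chosen for its length past the stem-loop and the background holds every transcript. The 24 also include HIST2H3A and HIST2H3C, which share a transcript. The shares are therefore a description only. In MOLM14, 19 of 20 tested members with long transcripts were higher with ARM165 (median 2.43), 6 of 6 with short ones (median 2.05) and 9 of 14 with no stem-loop (median 1.72), against 35.5% of all tested genes. In OCI-AML2, 18 of 20 with long transcripts were higher (median 2.32), 4 of 7 with short ones were higher and 1 lower (median 2.55), and 6 of 18 with no stem-loop were higher (median 0.41), the last a share near the 34.2% of all tested genes. These are counts of members that passed the filter, whether the classes differ was not tested, and the annotation is not known to be the one the authors used.

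The classes describe the models and not the RNA in these cells. The only model of HIST1H1C ends with no stem-loop, and HIST1H2BD has 1 model that ends 39 bases after the stem-loop and another without it, yet both genes are known to form polyadenylated mRNA. A list of 6 members known for this held HIST1H1C, HIST1H2AC, HIST1H2BC, HIST1H2BD, HIST1H2BK and HIST2H2BE. With ARM165, 6 of 6 were higher in MOLM14 (median 3.01) and 6 of 6 in OCI-AML2 (median 3.89). Of all tested members 34 of 40 and 28 of 45 were higher, and of all tested genes 35.5% and 34.2%. The list was chosen with earlier results of these data known, so its count is a description only. HIST1H2BC, not yet described, averaged 132 ± 7.74 normalized reads with ARM165 and 48.1 ± 11.7 with DMSO in MOLM14, and 261 ± 27.01 and 50.0021 ± 11.2 in OCI-AML2.

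**Figure D4:**
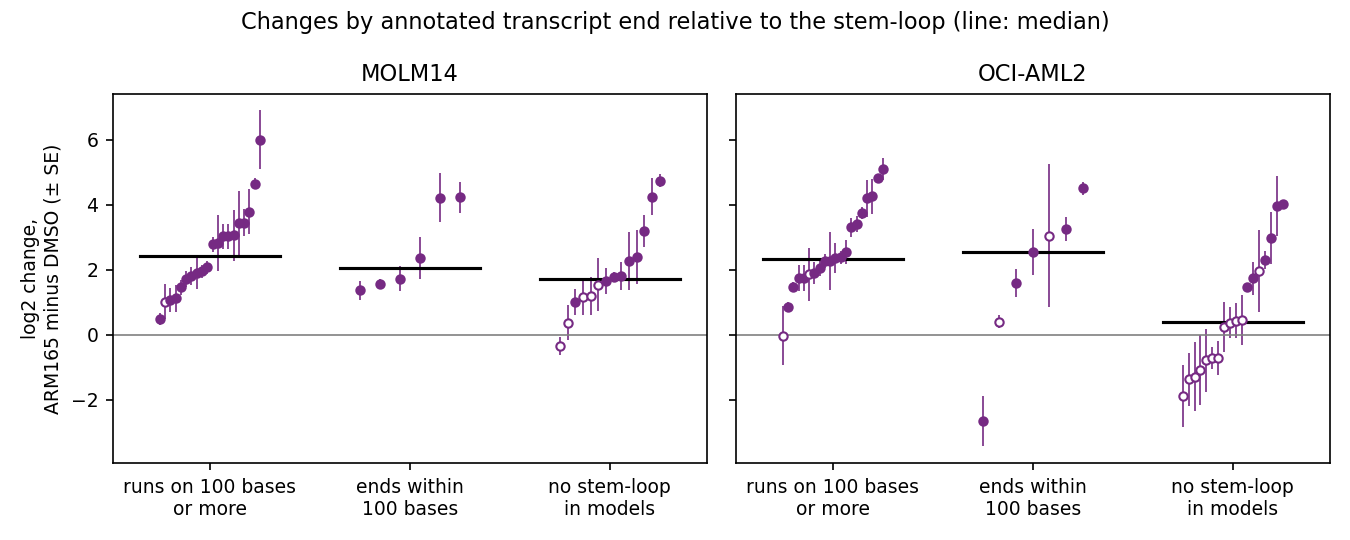
Log2 change with ARM165 minus DMSO (± SE) of tested members by the end of their annotated transcripts relative to the stem-loop, in MOLM14 (left) and OCI-AML2 (right). Filled points have an adjusted p under 0.05 and lines are medians, which in OCI-AML2 are 2.32, 2.55 and 0.41 from left to right.

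H2A and H2B genes often lie head to head and share the stretch between them as promoter, and 12 such pairs with starts within 1000 bases were found. Both genes could be tested in 6 pairs in MOLM14, of which both were higher in 4 and the calls differed in 2. In OCI-AML2, both were tested in 10 pairs, of which both were higher in 3, neither was called in 3 and the calls differed in 4. Of all tested members, 34 of 40 were higher in MOLM14 and 28 of 45 in OCI-AML2 (35.5% and 34.2% of all tested genes). Whether calls match more often within these pairs than between other members was not tested. In the pair HIST2H2AC and HIST2H2BE, whose calls differed in both lines, the H2A gene changed by -0.34 and the H2B gene by 1.80 in MOLM14, and by -0.72 and 3.75 in OCI-AML2. HIST1H2AI and HIST1H2BL were called in opposite directions in OCI-AML2, at 1.59 and -2.66. HIST1H2AC and HIST1H2BC both rose, by 4.66 and 1.47 in MOLM14 and by 4.84 and 2.38 in OCI-AML2. By chromosome, 25 of 29 tested members on chromosome 6 and 9 of 10 on chromosome 1 were higher in MOLM14 (35.5% of all tested genes), and 20 of 34 and 8 of 10 in OCI-AML2 (34.2%).

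The lists of genes that act with the histones are set against all tested genes, of which 35.5% rose and 34.0% fell with ARM165 in MOLM14, and 34.2% rose and 31.6% fell in OCI-AML2. Of the S phase genes, 18 of 18 fell in each line (median change -1.49 in MOLM14 and -1.86 in OCI-AML2). FEN1, the flap endonuclease of lagging-strand synthesis, averaged 984 ± 70.8 normalized reads with ARM165 and 3849 ± 78.03 with DMSO in MOLM14, and 933 ± 54.6 and 4165 ± 134 in OCI-AML2. UHRF1, which maintains DNA methylation behind the replication fork, fell by 2.13 in MOLM14 and by 2.37 in OCI-AML2 on the log2 scale. Of the histone chaperone and import genes, 8 of 9 fell and 1 rose in each line. NASP, a chaperone of soluble H3 and H4, changed by -1.57 ± 0.049 and -1.44 ± 0.054, whereas ASF1A, another H3 and H4 chaperone, rose by 1.35 ± 0.062 and 1.22 ± 0.076 (adjusted p = 3.04e-11 and 1e-09).

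In the list of histone transcription genes, 0 rose and 5 fell of 8 in MOLM14, and 3 rose and 5 fell in OCI-AML2. NPAT, the coactivator that is phosphorylated by cyclin E and CDK2 to switch on histone genes, had 770.2, 820.4, 849.9 and 892 normalized reads with ARM165 and 984, 978, 915 and 1079 with DMSO in MOLM14 (log2 change -0.25 ± 0.065, adjusted p = 0.00314). In OCI-AML2 its change was -0.27 ± 0.095 (adjusted p = 0.0207), and the call was lost without ARM165 replicate 2 or DMSO replicate 3 (adjusted p = 0.0753 and 0.0530). The cyclin gene CCNE1 fell further, by 2.24 in MOLM14 and by 1.74 in OCI-AML2, to 270.1 ± 49.7 with ARM165 against 1269 ± 88.4 with DMSO in MOLM14.

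Of 13 genes of stem-loop end processing, 3 rose and 7 fell in MOLM14, and 6 rose and 5 fell in OCI-AML2. The 3 that rose in MOLM14 and both counts in OCI-AML2 are not far from the shares of all genes. SLBP had 3606, 3739.8, 3844 and 4340.3 normalized reads with ARM165 and 7824, 7739.6, 7833 and 7690.5 with DMSO in MOLM14. SLBP in OCI-AML2 had 3941, 3771, 4405 and 4565 with ARM165 and 6304, 7113, 6342 and 5820.1 with DMSO. All ARM165 libraries were below all DMSO libraries (log2 change -1.005 ± 0.056 and -0.62 ± 0.074, adjusted p = 2.79e-10 and 2.24e-06), and the fall was smaller in OCI-AML2 (difference 0.39 ± 0.096, adjusted p = 0.00208). ZNF473, which links SLBP to the U7 particle, fell by 0.82 on the log2 scale in MOLM14 (adjusted p = 9.3e-07) and was not called in OCI-AML2 (-0.094 ± 0.092, adjusted p = 0.391; difference 0.73 ± 0.13, adjusted p = 8.9e-05).

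The U7 protein genes LSM10 and LSM11 moved little. LSM10 changed by -0.017 ± 0.080 in MOLM14 (adjusted p = 0.864) and by 0.17 ± 0.070 in OCI-AML2 (adjusted p = 0.0457), a call that was lost in 12 of 18 alternatives. LSM11 changed by -0.34 ± 0.076 in MOLM14 and 0.21 ± 0.074 in OCI-AML2 (adjusted p = 0.000856 and 0.0203; without OCI-AML2 ARM165 replicate 4 or DMSO replicate 3 the second was 0.0580 or 0.0768, and after quantile normalization 0.0654). Among histone mRNA decay genes, 5 of 6 listed symbols were tested, since ZCCHC6 was not matched. In MOLM14, 4 rose and 0 fell, and in OCI-AML2 3 rose and 2 fell. XRN1, the exoribonuclease that degrades decapped mRNA, rose to 597 ± 16.9 with ARM165 against 249 ± 7.34 with DMSO in MOLM14, and to 258 ± 10.8 against 143 ± 19.7 in OCI-AML2. DCP2, which removes the cap, changed by 0.67 ± 0.082 in MOLM14 (adjusted p = 2.61e-06) and by -0.25 ± 0.10 in OCI-AML2 (adjusted p = 0.04), where the call was lost in 6 of 18 alternatives (adjusted p up to 0.138). LSM1, of the ring that binds mRNA for decapping, rose by 0.53 ± 0.063 and 0.56 ± 0.048, and the helicase gene UPF1 by 0.18 ± 0.053 and 0.23 ± 0.066.

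Replication-independent histone genes, whose mRNAs carry poly(A) tails, split both ways. In MOLM14, 5 of 11 tested rose and 6 fell with ARM165, and in OCI-AML2, 4 of 10 rose and 6 fell. The shares that rose are not far above those of all tested genes, 35.5% and 34.2%. The shares that fell are larger than the 34.0% and 31.6% of all tested genes, and 0 tested genes of the list were left uncalled. H1F0, the linker histone of differentiated and resting cells, had 18282, 18093, 19112 and 22443 normalized reads with ARM165 and 462, 348, 484 and 493 with DMSO in MOLM14 (log2 change 5.45 ± 0.10, adjusted p = 3.19e-15), while in OCI-AML2 it was listed at 0 in 10 of 12 libraries and not tested. H3F3B, a gene of the replacement histone H3.3, rose by 1.26 ± 0.050 and 1.82 ± 0.054, and H1FX, an H1 variant gene, by 1.79 ± 0.059 and 0.90 ± 0.087. H2AFZ, which encodes H2A.Z, changed by -1.50 ± 0.058 and -1.49 ± 0.075 (adjusted p = 4.79e-12 and 9.69e-11). With AZ2, 0 genes of these lists were called in either line. The part of any of these genes in the histone results was not tested.

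**Figure D5:**
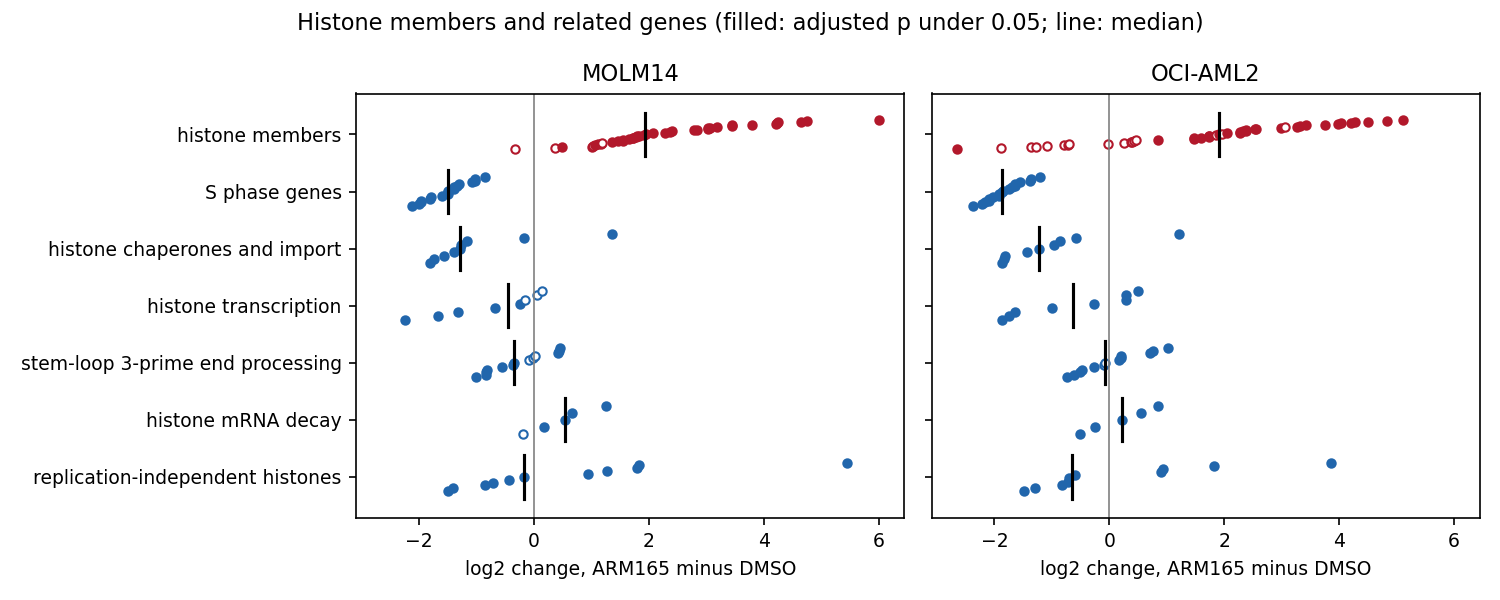
Log2 change with ARM165 minus DMSO of each tested histone member (red) and of each tested gene in 6 related lists (blue) in MOLM14 (left) and OCI-AML2 (right). Filled points have an adjusted p under 0.05 and lines are medians, 1.94 and 1.90 for the members and -1.49 and -1.86 for the S phase genes.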

How the data were processed

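RNA was measured in 24 libraries, 4 in each of 6 groups. Stranded libraries were made from the poly(A) fraction of column-purified RNA, per the labels. Per the submitters' processing notes, the authors quantified transcripts with kallisto (version not stated). The deposited signal values are normalized estimated reads per gene symbol in 1 table per line; build, annotation and scaling method are not given in the sources used here, so depth limits precision only as far as the spread between libraries shows.

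Values were taken as log2(value + 1), only genes that reached 10 in 4 or more of the 12 libraries of a line entered, and 1 mean per group was fitted to the 12 libraries of a line with limma 3.58.1 (R 4.3.3) with a variance trend. Differences between lines came from 1 fit of 24 libraries. Adjustment followed Benjamini and Hochberg over every gene tested, intervals are 95% intervals of single genes, and the fit was tested on simulated data. Members of GENCODE 29 (GRCh38) were matched by symbol (75 of 75).

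The members and gene lists were chosen with earlier results of these data known. Named members were the 3 with the highest mean per type and line, per type and line up to 2 of the largest rises and falls with a group mean of at least 50, the smallest p for AZ2 where none was called, and up to 3 of the largest differences between lines in each direction. Alternatives were another pseudocount, no filter, 2 other scalings, a replicate block, fits of only the groups compared, each library left out, and near-identical copies summed (added after seeing the data). Correlations between libraries of the same replicate number were low, which cannot exclude a pairing by number.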

Additional observations from a re-analysis of the deposited data

Results flagged for a closer look

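Among 306 sets of 4 libraries examined (each named gene in each group), 13 held a library whose distance from its nearest neighbour took up most of the range; chance gives about 1 in 20. Among members these were HIST1H1B at 40.6 normalized reads in an AZ2 library and 35.2 in a DMSO library of OCI-AML2, both of replicate number 4, against at most 21.7 and 13.0 in the others. In MOLM14, ARM165 replicate 4 was high for HIST1H1C (1676), HIST1H2AC (3322) and HIST1H2BN (252), and DMSO replicate 3 was high for HIST2H2AA4 (129). In OCI-AML2 DMSO libraries, HIST1H2AC was low in replicate 4 (113) and HIST1H3H in replicate 3 (44.7).

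Among related genes, ASF1A was high in 1 AZ2 library of MOLM14 (7102), SYMPK was low in another (1851) and LSM11 was high in 1 ARM165 library of MOLM14 (1393). H1FX (6277) and UHRF1 (19394) were low in 1 DMSO library each of OCI-AML2.

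Changes with ARM165 that differed between the lines, as the OCI-AML2 change minus the MOLM14 change, were those of HIST2H2BE (1.95 ± 0.33), HIST2H2AA4 (1.70 ± 0.42), HIST1H4H (1.66 ± 0.58), HIST1H4C (-3.82 ± 0.77), HIST1H3I (-2.55 ± 0.99) and HIST1H1B (-2.36 ± 0.64), each with an adjusted p under 0.05 in limma and n = 4 libraries per group. For HIST1H4C this is a description, since it passed the filter in MOLM14 through ARM165 libraries alone.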

How the results depend on the processing

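Counts of members called higher stayed within 1.5 times of those reported in every alternative run. For ARM165 against DMSO they ran from 29 (quantile normalization) to 38 (no filter) in MOLM14 and from 26 (copies summed) to 29 in OCI-AML2; leaving out 1 library gave 30 to 35 and 27 to 29. Against AZ2, leaving out 1 library gave 29 to 34 and 28 to 29. The small counts called lower moved more. Quantile normalization gave 1 in MOLM14 against DMSO and 1 against AZ2, and 2 in OCI-AML2 against DMSO; it moved the median of all genes for ARM165 minus AZ2 in MOLM14 to -0.062 in place of 0.040. With no filter, 3 were lower in OCI-AML2 against DMSO, 1 against AZ2 and 8 in the difference between lines. Leaving out 1 library gave 1 to 3 lower in OCI-AML2 against DMSO (3 without ARM165 replicate 4), 0 to 3 against AZ2 (0 without ARM165 replicate 3) and 3 to 8 in the line difference (8 without OCI-AML2 DMSO replicate 1 or 2, 3 without replicate 4), where 4 to 5 were higher. The cause was not tested. Counts for AZ2 were 0 in every alternative. With mitochondrially encoded genes left out of the total, the histone share was 247 RPM with ARM165 in MOLM14, and 509.7 with ARM165, 71.9 with AZ2 and 74.0 with DMSO in OCI-AML2. Leaving out 1 library gave shares of 231 to 239 with ARM165, 26.5 to 28.3 with AZ2 and 27.5 to 29.01 with DMSO in MOLM14, and 478 to 485, 65.3 to 67.2 and 67.6 to 69.1 in OCI-AML2. For LSM10 in MOLM14 (-0.017) leaving out 1 library gave -0.065 to 0.043, above 0 without ARM165 replicate 1 (0.0026), ARM165 replicate 2 or DMSO replicate 1 (0.020). Deviations of same-numbered libraries correlated at -0.037 to 0.056, and those of differently numbered libraries at -0.063 to 0.046. No pairing by number was seen, although low correlations over all genes cannot exclude one. A fit with the replicate number as a block gave 34 higher in MOLM14 and 28 higher and 1 lower in OCI-AML2 against DMSO, and 3 lower in the line difference. Members with few reads have wide intervals, and a change in them that was not called may still be large.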
